A study of Homo sapiens with 6 samples.

Results

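The genes described here are 300 pseudogenes of ribosomal protein genes, copies such as RPS2P5 or RPL7P1, among 21429 genes of a deposited expression table of human U251 glioma cells. They were chosen by their symbol (RPL or RPS, the number of the parent gene, then P and a number) and by an annotated pseudogene type. The 15 copies of RPL13, the siRNA target, and of RPL13A were left out. The symbol rule gave 314 genes, and the 300 with the highest mean value over all 6 libraries were kept. At that limit RPL36AP33 was the last gene inside (mean -0.0082) and RPL36AP30 the first outside (-0.0093), so the 14 genes left out had almost no signal. The level of expression thus chose the members and is given below as a description.

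Ribosomal protein genes encode the proteins that, with ribosomal RNA, make up the small (RPS) and large (RPL) ribosomal subunits. Their messenger RNAs are short and abundant, and over evolution many were reverse transcribed and inserted back into the genome. Such processed pseudogenes lack the introns and the promoter of the parent gene, and most have gathered mutations that break its reading frame. Some lie near a promoter or inside another gene and can be transcribed, and copies that have changed little are hard to tell from the parent in short sequencing reads.

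Cells electroporated with siRNA to the large-subunit gene RPL13 (siRPL13, 3 libraries) were compared with cells given a control siRNA (siNC, 3 libraries). Cells of both groups stably carried mutant amyloid precursor protein, APP (K670N/M671L), and both received doxycycline at 1 µg/mL, added 24 h after electroporation, which induced it. Total RNA was taken at 72 h. The labels call the libraries biological replicates without saying how the cultures were separated, so the p-values measure the spread between these 6 libraries.

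Each value is a regularized-log (rlog) value on the log2 scale, which adjusts for library size and shrinks each gene to its own mean, most of all where reads are few, so differences of low genes are understated. It is not per length, so levels of different genes are compared only as rlog values, and the read depth is unknown. RPL13 itself had 13.03, 13.12 and 14.09 in siRPL13 replicates 1 to 3, against 14.05, 14.16 and 14.18 in siNC replicates 1 to 3. The target was thus lowered in replicates 1 and 2 and not in the library labelled siRPL13 replicate 3. The counts of called members are therefore given with all 6 libraries and without that library, called below the 5-library comparison. Level classes, correlations and single genes are in part given for the 5-library comparison alone. Of 10 glioma and astrocyte markers read, GFAP, VIM, NES, SOX2, SOX9, CD44 and SLC1A3 had mean rlog values of 11.25 to 16.08. S100B was lower at 5.64, ALDH1L1 low at 0.79, and AQP4 was not analysed here.

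Of the 300 pseudogenes, 278 were annotated as processed, 18 as transcribed processed, 2 as transcribed unprocessed and 2 as unprocessed. They had 62 parent genes, with 205 copies of large-subunit and 95 copies of small-subunit genes, and lay on 23 chromosomes, most often on chromosomes 1 (29 copies), 3 (24) and 2 (20). RPL21 had the most copies (20), followed by RPL7A (18) and RPL23A (13). Their annotated length was 498 bases in the median, between 78 and 65665 bases.

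Most of the pseudogenes were low and a small group was high. The median of the mean rlog was 2.70, against 14.10 for the 62 parents, of which 55 stood at 12 or more. Of the pseudogenes 74 lay under 1, 93 between 1 and 3, 51 between 3 and 5, 29 between 5 and 7, 23 between 7 and 9, and 30 at 9 or more. The 133 with a mean of at least 3 were tested. These are 44.3% of the members, against 40.5% of the 1644 other processed pseudogenes in the table (median 2.31) and 71.5% of all genes.

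Among the members with the highest level were copies of RPS2, RPS18, RPL36A, RPS27, RPL29, RPL41 and RPL7A. RPS2P5, a processed copy of the small-subunit gene RPS2, led with a mean rlog of 14.69, rank 91 in the whole table. Others near the top were RPS18P12 (12.49), RPL36AP37 (12.23), RPS18P5 (11.90), RPS2P46 (11.80), RPS27P3 (11.64), RPL29P4 (11.44), RPL41P1 (11.37) and RPL7AP6 (11.29).

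The stretches that follow show how close some of these copies are to the parent, since that closeness bears on whether a read can be assigned to one of them. They are the sense strand of GENCODE 29 transcripts on GRCh38, with bases that differ from the parent in capitals and positions counted from the A of the parent's start codon. Each stretch was picked to hold the most differences, for RPS18 mainly those of RPS18P12. It can thus understate how close a copy is over its whole length. RPS18 (chr6:33272010-33276510, plus strand), which encodes a protein of the head of the small subunit, is shown at coding positions 197 to 316. RPS18P12 (chr17:14705219-14705338, minus strand) has 8 differences there, among them A202G, A240C and C249T, and RPS18P5 (chr3:101576632-101576751, minus strand) has A208G and C285T, the last shared with RPS18P12. Over all 459 aligned positions RPS18P12 was 96.5% identical to RPS18 (16 differences) and RPS18P5 98.7% (6 differences).
RPS18: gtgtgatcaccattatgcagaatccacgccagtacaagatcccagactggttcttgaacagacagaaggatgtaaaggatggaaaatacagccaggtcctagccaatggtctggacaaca
RPS18P12: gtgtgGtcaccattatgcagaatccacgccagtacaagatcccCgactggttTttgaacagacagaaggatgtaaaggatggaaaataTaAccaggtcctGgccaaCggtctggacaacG
RPS18P5: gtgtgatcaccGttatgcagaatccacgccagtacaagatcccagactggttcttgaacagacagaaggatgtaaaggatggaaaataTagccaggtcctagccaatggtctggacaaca

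Some of the high copies had few differences or none. RPL41, which encodes the shortest ribosomal protein, and RPL41P1 (chr20:21755270-21755347, plus strand) share all 78 coding bases. RPS28, a small-subunit gene, and RPS28P7 (chr11:82689559-82689678, plus strand) share coding positions 1 to 120 and the whole 210 bases of the pseudogene. RPS27P3 (chr12:3211762-3211881, minus strand) and RPS27P4 (chr3:40761581-40761700, plus strand) each have 1 difference from RPS27 over their whole 255 bases, G156A in RPS27P3 and C67G in RPS27P4.
RPL41 and RPL41P1: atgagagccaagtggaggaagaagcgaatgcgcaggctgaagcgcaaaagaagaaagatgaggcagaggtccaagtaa
RPS28 and RPS28P7: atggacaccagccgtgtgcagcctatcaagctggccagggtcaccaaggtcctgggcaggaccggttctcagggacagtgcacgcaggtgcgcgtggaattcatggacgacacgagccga
RPS27: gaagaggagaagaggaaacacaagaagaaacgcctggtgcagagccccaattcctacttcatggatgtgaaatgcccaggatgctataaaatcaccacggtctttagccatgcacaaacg
RPS27P3: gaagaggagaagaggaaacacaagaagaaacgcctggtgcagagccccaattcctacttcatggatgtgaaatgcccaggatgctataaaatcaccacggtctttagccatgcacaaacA
RPS27P4: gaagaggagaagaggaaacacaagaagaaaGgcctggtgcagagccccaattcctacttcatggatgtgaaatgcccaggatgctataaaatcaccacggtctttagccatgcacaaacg

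Closeness to the parent and the level went together over the members. Identity to the parent transcript, over the aligned bases alone, was 94.7% in the median and 64.6% at the lowest. The lowest was RPL7P57, where the alignment held 192 positions of a transcript of 740 bases and 25.4% of the RPL7 coding bases. Parents were assigned by symbol, so such members are copies of the parent by name. The median mean rlog was 1.28 for the 60 members under 90% identity, 1.44 for the 100 at 90 to under 95%, 3.76 for the 46 at 95 to under 97%, 4.54 for the 61 at 97 to under 99% and 7.30 for the 27 at 99 to under 100%. It was 10.84 for the 6 members with no difference over the aligned part, RPL36AP37, RPL39P3, RPL41P1, RPL21P16, RPS28P7 and RPL41P5. The share with a mean of at least 3 was 23.3% in the lowest of these classes, 85.2% at 99 to under 100% and 6 of 6 at full identity.

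Over the 300 members, identity and mean rlog had a Spearman correlation of 0.56, and the longest identical stretch and mean rlog 0.57. The level of the parent (0.0083) and the length of the pseudogene (0.086) hardly tracked the level of the copy. These members share parents, libraries and normalisation and are not independent points. The sources used here do not say how reads matching several places were treated, so reads of a near-identical copy and its parent cannot be told apart with certainty. The part of shared reads in the results was not tested.

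**Figure D1:**
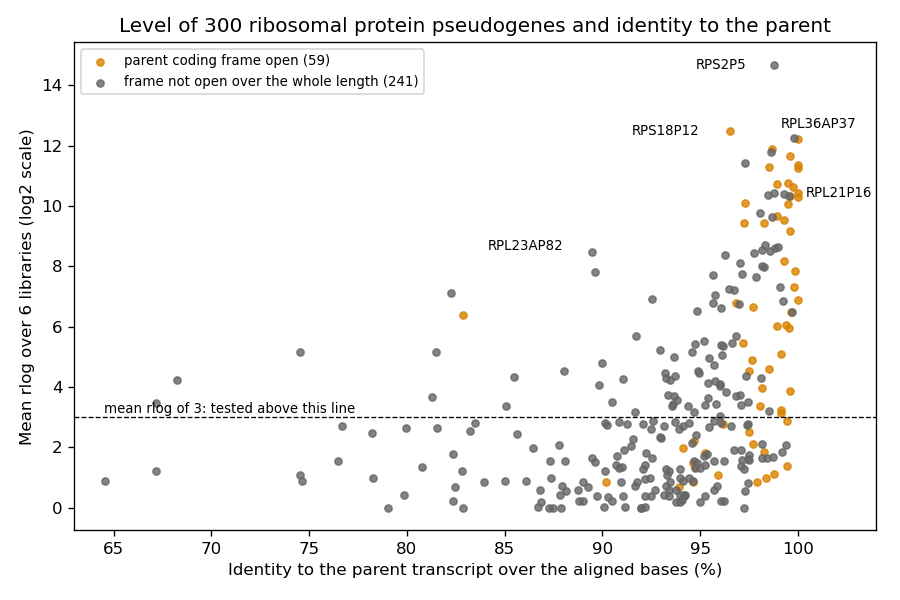
Mean rlog over 6 libraries (vertical, log2 scale) against the percentage of aligned bases identical to the parent transcript (horizontal), with 1 point per pseudogene. The 59 whose parent coding frame is open are in orange and the 241 others in grey; the highest points gather near full identity, while RPL23AP82 stands at 8.46 with 89.5% identity.

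The same order was seen within families. In 37 of the 50 families with at least 2 copies, the copy with the highest level was also the one with the highest identity. Ties in identity went to the copy with the longer identical stretch, so a tied copy such as RPS27P3 was not counted. Among the 20 copies of RPL21, a large-subunit gene, identity and mean rlog had a Spearman correlation of 0.63. The highest were RPL21P16, RPL21P75 and RPL21P28, shown here beside RPL21P44, a low copy with more differences. RPL21P16, identical over its 483 bases, had a mean rlog of 10.43, RPL21P75 (99.8%) 7.32, RPL21P28 (99.4%) 6.06 and RPL21P44 (91.1%) 1.91. The order had many exceptions: of the 15 copies with at least 97% identity, 6 lay below RPL21P44, and RPL21P119 (99.4%) stood at 2.07. At RPL21 coding positions 35 to 134, RPL21P16 (chr10:120355050-120355149, minus strand) and RPL21P75 (chr7:20002799-20002898, plus strand) equal the parent, RPL21P28 (chr1:212051873-212051972, minus strand) has T134C alone, and RPL21P44 (chr4:53986925-53987024, minus strand) has 10 differences.
RPL21, RPL21P16 and RPL21P75: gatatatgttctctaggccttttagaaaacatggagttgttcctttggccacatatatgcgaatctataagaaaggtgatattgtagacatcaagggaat
RPL21P28: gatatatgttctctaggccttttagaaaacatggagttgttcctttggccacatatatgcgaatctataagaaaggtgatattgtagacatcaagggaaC
RPL21P44: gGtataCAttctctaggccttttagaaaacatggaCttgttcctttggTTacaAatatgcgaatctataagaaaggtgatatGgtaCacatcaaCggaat

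RPL7A and RPL23A had the next largest families. Among the 18 RPL7A copies RPL7AP6 (98.5% identity) stood at 11.29 and RPL7AP70, the next, at 7.22, and 9 of the 18 reached a mean of 3. The RPL23A copies went against the order. RPL23AP82 (8.46) and RPL23AP7 (7.82) led its 13 copies with 89.5% and 89.6% identity to RPL23A, while RPL23AP42, at 99.6%, stood at 3.88. The identity of both leading copies covers 531 aligned positions, of transcripts of 1009 bases (RPL23AP82) and 738 bases (RPL23AP7). The part of the remaining bases in their levels was not tested. RPL23AP82 and RPL23AP7 are annotated as transcribed, and over 738 aligned bases they were 98.5% identical to each other, closer than either was to RPL23A.

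The parent's coding frame was intact in 59 members, from a kept start codon over all coding bases with no frameshift and no early stop. These had a median mean rlog of 6.01, and 69.5% reached 3, against 2.26 and 38.2% for the 241 others. They also had a higher median identity, 98.7% against 93.7%, so frame and identity cannot be told apart here. Of the others, 164 had a frameshift and 141 an early stop in frame. A further 35 had neither, but aligned to only part of the coding bases or lacked the start codon, RPS2P5 among them.

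Of the 300 members, 294 lay below their parent in every library, with a median gap between the mean rlog values of -10.35. In 6 members the mean rlog was above that of the parent: RPS18P12 (12.49) and RPS18P5 (11.90) over RPS18 (8.01), RPL36AP37 (12.23) over RPL36A (6.84), RPL7AP6 (11.29) over RPL7A (9.17), and RPL17P7 (9.52) and RPL17P6 (8.16) over RPL17 (6.74). RPL36A, RPL7A and RPL17 encode large-subunit proteins. In 5 of the 6 this held in every library, the exception being RPS18P5. The 4 parents concerned were among the lowest of the 62. In the annotation RPL36A overlaps the gene RPL36A-HNRNPH2, RPL17 overlaps RPL17-C18orf32 and 3 small nucleolar RNA genes, and RPL7A overlaps 4 small nucleolar RNA genes, while RPS18 overlaps VPS52 on the opposite strand. The share of that overlap in the low values of these parents was not tested.

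RPS18 stood apart from its copies in 1 library. RPS18 had rlog values of 7.26, 7.20 and 11.90 in siRPL13 replicates 1 to 3, against 7.31, 7.20 and 7.20 in siNC. RPS18P12 had 12.64, 12.57 and 12.33 in siRPL13, against 12.44, 12.42 and 12.55 in siNC. The library labelled siRPL13 replicate 3 was thus the highest of all for RPS18 and the lowest of all for RPS18P12. The RPL13 level goes against the label of this library, and the sources used here do not say whether every library was aligned to the same reference sequences, so its RPS18 value is given as deposited and the part of either in it was not tested. RPS18P5 had 12.02, 11.94 and 11.77 in siRPL13, against 11.84, 11.83 and 11.96 in siNC, with the same library lowest. The gap of RPS18P12 over RPS18 was 5.37, 5.37 and 0.43 in siRPL13, against 5.13, 5.22 and 5.35 in siNC.

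**Figure D2:**
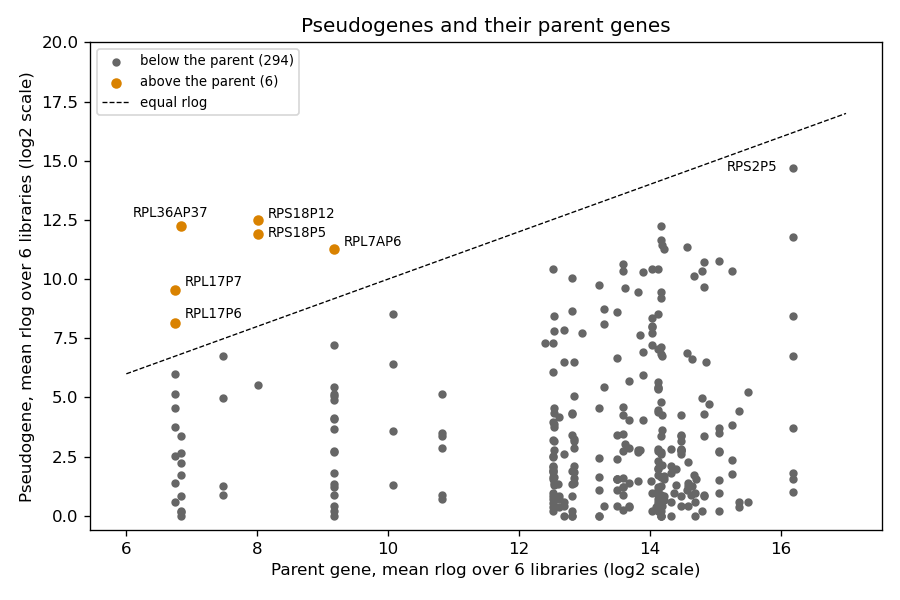
Mean rlog of each pseudogene (vertical) against that of its parent (horizontal), both on the log2 scale over 6 libraries, with a dashed line where they are equal. In 294 members the point lies under the line; the 6 above it, in orange, belong to RPS18, RPL36A, RPL7A and RPL17, whose mean rlog was between 6.74 and 9.17.

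Between the groups, no pseudogene passed the limma test with all 6 libraries: 0 were higher and 0 lower of 133 tested, where 0% of all 15327 genes passed. The smallest adjusted p among them was 0.589. With library weights estimated by limma, 13 members were higher (9.77%, against 17% of all genes) and 5 lower (3.76%, against 17.7%), both again under the shares of all genes. By unadjusted p of limma, 5 of the 133 members were under 0.05, a smaller share than the 1275 of all 15327 genes. These members were RPL3P4, RPS28P7, RPL35P5, RPS23P8 and RPL31P46. The 3 libraries of siRPL13 all lay above the 3 of siNC in 6 members (4.51%, against 6.92% of all genes), and all below in 5 members (3.76%, against 6.9% of all genes). Neither share was above that of all genes. The median difference was 0.0044 over the members and -0.00080 over all genes.

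In the 5-library comparison 8 pseudogenes rose and 1 fell, by limma with an adjusted p under 0.05 over all genes. That is 6.02% higher and 0.752% lower of the 133 tested, where 8.42% of all genes were higher and 10.7% lower. Both shares of the members were under those of all genes, and the difference in share was not tested. The groups did not overlap in 33 members with higher values in siRPL13 (24.8%, against 24.7% of all genes) and in 10 with lower values (7.52%, against 26.6%). Other processed pseudogenes had 19 higher and 17 lower of 666 tested (5.41% called, against 19.1% of all genes). Among the parents, 15 of 62 rose (24.2%, against 8.42% of all genes) and 0 fell (against 10.7%), while with all 6 libraries 0 were called. The counts rest on single libraries: 0 members were called with siRPL13 replicate 1 left out as well, where 0.665% of all genes were higher and 0.92% lower. Without siRPL13 replicate 2, 4 rose (3.01%, against 2.5% of all genes) and 0 fell (against 3.65%). Without siNC replicate 2, 3 rose (2.26%, against 6.6% of all genes) and 1 fell (0.752%, against 8.84%). Without siNC replicate 1, 8 rose (6.02%, against 11.3% of all genes) and 1 fell (0.752%, against 13.1%), and without siNC replicate 3, 9 rose (6.77%, against 6.11%) and 1 fell (0.752%, against 8.63%). The share that rose was thus above that of all genes, and close to it, in the fits without siRPL13 replicate 2 or without siNC replicate 3. In bulk cultures, a shift in the cells present and a change of RNA per cell cannot be told apart.

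RPS2P5 and RPS2P46 rose, as did their parent RPS2. Over their aligned length RPS2P5 was 98.7% and RPS2P46 98.6% identical to RPS2, and 98.3% identical to each other. RPS2P5 had rlog values of 14.95, 14.89 and 14.52 in siRPL13 replicates 1 to 3, against 14.56, 14.58 and 14.63 in siNC. Replicates 1 and 2 of siRPL13 lay above every siNC library, and the library labelled siRPL13 replicate 3 below every one. The means were 14.79 ± 0.23 in siRPL13 and 14.59 ± 0.04 in siNC (SD, n = 3 each). The difference was 0.34 ± 0.05 (SE) in the 5-library comparison (adjusted p = 0.00230 by limma) and 0.20 ± 0.11 with all 6 libraries, where it did not pass.

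RPS2P46 had 12.04, 11.98 and 11.67 in siRPL13, against 11.70, 11.63 and 11.77 in siNC, and rose by 0.30 ± 0.06 in the 5-library comparison (adjusted p = 0.00479 by limma). RPS2 itself had a difference of 0.32 there (adjusted p = 0.00470 by limma). With all 6 libraries RPS2P46 had 0.19 and RPS2 0.19, and neither passed. The gap of RPS2P5 to RPS2 was -1.51, -1.47 and -1.49 in siRPL13, against -1.50, -1.51 and -1.50 in siNC. The pseudogene thus kept nearly the same distance from its parent in every library, with an SD of 0.014 over the 6 gaps against 0.19 for RPS2P5 alone. The other RPS2 copies with a mean of at least 3, RPS2P55, RPS2P7 and RPS2P17, had differences of 0.10, -0.04 and 0.10 and were not called.

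Other copies that rose belong to large-subunit genes. RPL7P1 (chr5:150094302-150095048, plus strand), a copy of RPL7, had 10.57, 10.56 and 10.08 in siRPL13, against 10.27, 10.11 and 10.46 in siNC. It rose by 0.28 ± 0.09 in the 5-library comparison (adjusted p = 0.0405 by limma), beside 0.25 in RPL7 (adjusted p = 0.0399 by limma). With all 6 libraries the differences were 0.12 in RPL7P1 and 0.087 in RPL7, and neither passed. The SD of RPL7P1 over libraries was 0.22 and that of its gap to RPL7 0.027. RPL35P5 (chr7:66606738-66607107, minus strand), a copy of RPL35, whose protein lies at the exit of the peptide tunnel, had 8.54, 8.44 and 8.39 in siRPL13, against 8.28, 8.24 and 8.27 in siNC. All 3 siRPL13 libraries, the one labelled replicate 3 included, lay above all siNC libraries. Its difference was 0.23 ± 0.07 in the 5-library comparison (adjusted p = 0.0432 by limma) and 0.20 ± 0.07 with all 6 (adjusted p = 0.589 by limma). RPL35 had 0.17 in the 5-library comparison (adjusted p = 0.0354 by limma).

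The transcribed RPL23A copies rose without a call in the parent. RPL23A encodes another protein of the tunnel exit. RPL23AP82 (chr22:50756948-50801309, plus strand) had 8.69, 8.64 and 8.24 in siRPL13, against 8.33, 8.34 and 8.53 in siNC, a difference of 0.26 ± 0.08 in the 5-library comparison (adjusted p = 0.0417 by limma). RPL23AP7 (chr2:113610502-113627090, minus strand) had 7.91, 8.08 and 7.70 in siRPL13, against 7.74, 7.77 and 7.74 in siNC, and rose by 0.25 ± 0.08 (adjusted p = 0.0483 by limma). In both, siRPL13 replicates 1 and 2 lay above every siNC library and the library labelled replicate 3 below every one. RPL23A had a difference of 0.10 in the 5-library comparison (adjusted p = 0.227 by limma). The difference between copy and parent was not tested. With all 6 libraries RPL23AP82 had 0.12 and RPL23A 0.0035, and neither passed. RPL23AP82 and RPL23AP7 share most of their sequence, so they are not separate observations.

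The small-subunit copies RPS28P7 and RPS27P3 also rose. RPS28P7 had 10.53, 10.39 and 10.26 in siRPL13, against 10.23, 10.06 and 10.27 in siNC, and a difference of 0.27 ± 0.07 in the 5-library comparison (adjusted p = 0.0265 by limma), beside 0.38 in RPS28 (adjusted p = 0.00113 by limma). The library labelled siRPL13 replicate 3 lay within the siNC range. RPS27P3 had 11.82, 11.81 and 11.41 in siRPL13, against 11.61, 11.61 and 11.58 in siNC, and rose by 0.21 ± 0.05 (adjusted p = 0.0111 by limma). RPS27 had 0.13 (adjusted p = 0.0820 by limma), and RPS27P4, as close to the parent as RPS27P3, had 0.05 (adjusted p = 0.624 by limma). With all 6 libraries RPS28P7 had 0.21 and RPS27P3 0.079, and neither passed.

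RPL3P4, a short copy of RPL3, was the 1 member that fell. RPL3 encodes a core protein of the large subunit, near the site of peptide bond formation. RPL3P4 is 99.5% identical to it over 423 bases. RPL3 (chr22:39312882-39320389, minus strand) is shown at coding positions 790 to 909, the stretch of RPL3P4 (chr14:98973182-98973301, minus strand) that holds both of its differences, T852C and C885T.
RPL3: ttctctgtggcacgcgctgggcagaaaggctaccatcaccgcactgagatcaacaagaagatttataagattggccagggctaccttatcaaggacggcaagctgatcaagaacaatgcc
RPL3P4: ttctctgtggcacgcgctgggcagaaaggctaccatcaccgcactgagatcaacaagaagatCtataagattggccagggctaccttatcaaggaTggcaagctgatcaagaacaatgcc

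RPL3P4 had 10.14, 10.18 and 10.28 in siRPL13, against 10.44, 10.40 and 10.55 in siNC. All 3 siRPL13 libraries lay below all siNC libraries, the library labelled replicate 3 included. The difference was -0.31 ± 0.06 in the 5-library comparison (adjusted p = 0.00735 by limma) and -0.26 ± 0.07 with all 6 libraries (adjusted p = 0.589 by limma). RPL3 had 14.70, 14.70 and 14.81 in siRPL13, against 14.80, 14.86 and 14.93 in siNC, a difference of -0.17 in the 5-library comparison (adjusted p = 0.0521 by limma). Copy and parent were both lower in siRPL13 replicates 1 and 2 than in every siNC library.

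**Figure D3:**
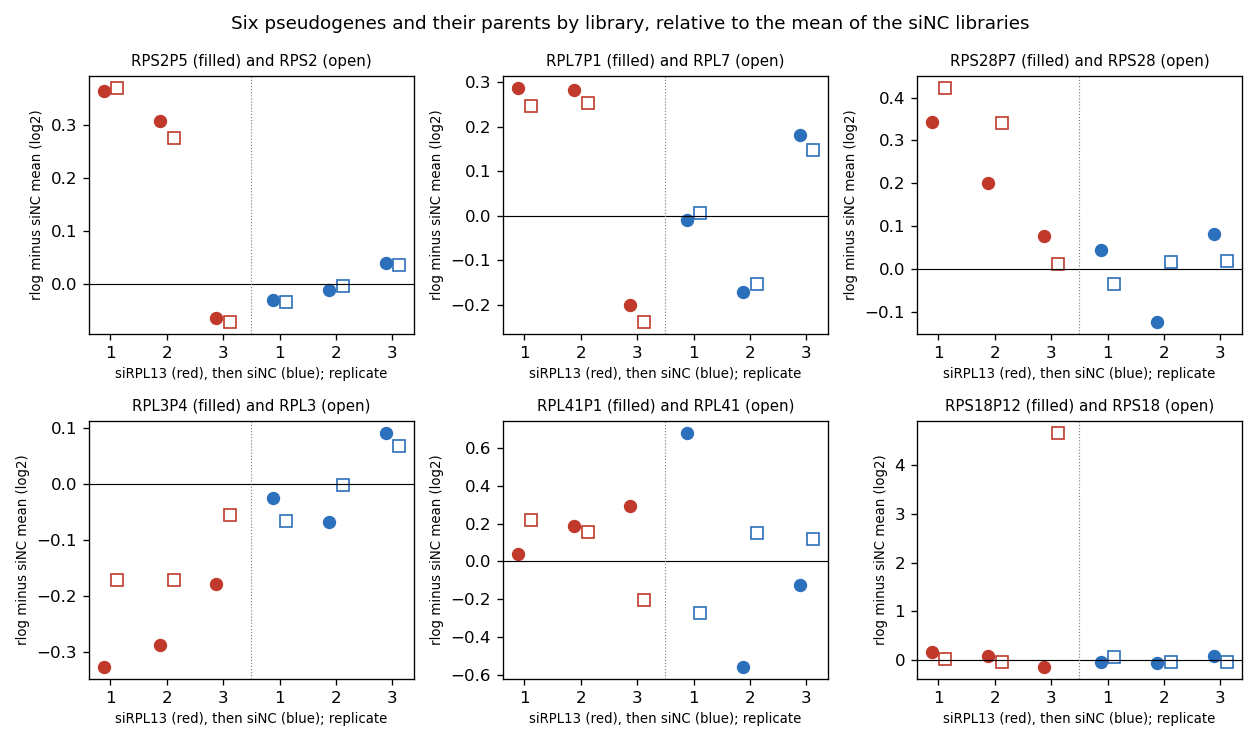
The rlog value in each library minus the mean of the siNC libraries (vertical, log2 scale, a different range in each panel) for 6 pseudogenes (filled circles) and their parents (open squares), with siRPL13 replicates 1 to 3 in red on the left and siNC replicates 1 to 3 in blue on the right. RPS2P5 and RPL7P1 lie close to their parents in every library, RPL41P1 does not, and the library labelled siRPL13 replicate 3 lies far above the siNC mean for RPS18 and not for RPS18P12.

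The other members described here from the top of the level order were not called. RPL36AP37 (chr11:16974693-16975013, minus strand) had 12.26, 12.26 and 12.12 in siRPL13, against 12.23, 12.20 and 12.32 in siNC. RPL29P4 (chr6:117998975-117999448, plus strand) had 11.46, 11.44 and 11.37 in siRPL13, against 11.44, 11.39 and 11.53 in siNC. With all 6 libraries the groups overlapped in both of these. RPL7AP6 (chr14:69885340-69886140, minus strand) had 11.34, 11.30 and 11.27 in siRPL13, against 11.24, 11.19 and 11.41 in siNC. RPS18P12 and RPS18P5 had differences of 0.13 ± 0.06 and 0.10 ± 0.06 in the 5-library comparison (adjusted p = 0.119 and 0.227 by limma).

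The widest ranges over libraries were those of RPL41P1, RPL9P9, RPL7P1, RPL5P34 and RPS28P7. RPL41P1 had 11.33, 11.47 and 11.58 in siRPL13, against 11.97, 10.73 and 11.17 in siNC, so that siNC alone spanned the whole range of 1.24. RPL41 had 14.77, 14.70 and 14.34 in siRPL13, against 14.27, 14.70 and 14.67 in siNC. siNC replicate 1 was the highest library for RPL41P1 and the lowest for its parent. Their coding bases are the same, but these are only a part of the RPL41 transcript. RPL41P1 is annotated with 81 bases, while another copy, RPL41P2, aligned to RPL41 over 407 positions. RPL9P9 (chr15:82372196-82372912, minus strand), a transcribed copy of the large-subunit gene RPL9, had 8.29, 7.97 and 7.51 in siRPL13, against 7.71, 7.59 and 7.97 in siNC. Its difference of 0.38 ± 0.12 in the 5-library comparison was the largest of any member but did not pass (adjusted p = 0.0506 by limma). RPL9, to which it is 99.8% identical, had 0.048 there (adjusted p = 0.602 by limma). RPL5P34 (chr22:42776406-42777296, minus strand), a copy of RPL5, which binds ribosomal RNA of the large subunit, had 7.14, 6.95 and 6.84 in siRPL13, against 6.87, 7.11 and 7.32 in siNC, with overlapping groups.

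The median difference was largest in the members with the highest level. In the 5-library comparison the median difference was -0.00071 in the 51 members with a mean rlog of 3 to under 5, of which 0 were called, where 5.2% of all genes of that level were. It was 0.038 in the 52 at 5 to under 9, with 3 called (5.77%, against 15.4% of all genes of that level). In the 30 at 9 or more it was 0.11, with 6 called (20.0%, against 25.8%). The rise in the count with the level was thus seen over all genes too, and in each class the members' share was the lower one, a difference that was not tested. Of these 30, 28 had a positive difference, as did 46.8% of all 7918 genes of that level, whose median difference was -0.014. The median was 0.033 over all tested members, 0.086 over the parents and -0.0014 over all genes. With all 6 libraries the medians were 0.0044 over the tested members and 0.044 over those at 9 or more. The rlog scale itself shrinks low genes, and its part in this order was not tested.

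By library, the high members and the parents moved alike. The median deviation from the siNC mean over the 30 members at 9 or more was 0.13, 0.11 and -0.10 in siRPL13 replicates 1 to 3, against -0.010, -0.071 and 0.074 in siNC. Over the 62 parents it was 0.10, 0.059 and -0.12 in siRPL13, against -0.026, -0.027 and 0.063 in siNC. siRPL13 replicates 1 and 2 lay above every siNC library in 21 and 18 of the 30, where 33.2% and 31.9% of all genes did. In 18 of the 30 and in 44 of the 62 parents, the library labelled siRPL13 replicate 3 was lower than every siNC library, where 27.9% of all genes were. In the median of both lists it thus lay below siNC, where siRPL13 replicates 1 and 2 lay above it.

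The members' differences were set beside those of their parents. The sign of the difference was that of the parent in 86 of 133 members in the 5-library comparison and in 85 with all 6 libraries. Among the 30 at 9 or more it was the same in 25 and 24, and within 0.1 of the parent's value in 23 and 25 of them. In the 5-library comparison 28 of the 30 and 47 of the 62 parents had a positive difference, with medians of 0.11 and 0.086. Such agreement is thus partly given by the lists, and its rate in unmatched pairs was not tested. The Spearman correlation of the member's with the parent's difference in the 5-library comparison was 0.73 over these 30, 0.25 over the 51 under 5 and 0.39 over all 133, where copies of 1 parent share its value. The median of the member's difference minus that of its parent was -0.062 in the 5-library comparison and -0.031 with all 6 libraries. Among the 53 members with a mean of at least 7, the SD over libraries was smaller after subtracting the parent in 38, and its median was 0.068 against 0.11 before.

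**Figure D4:**
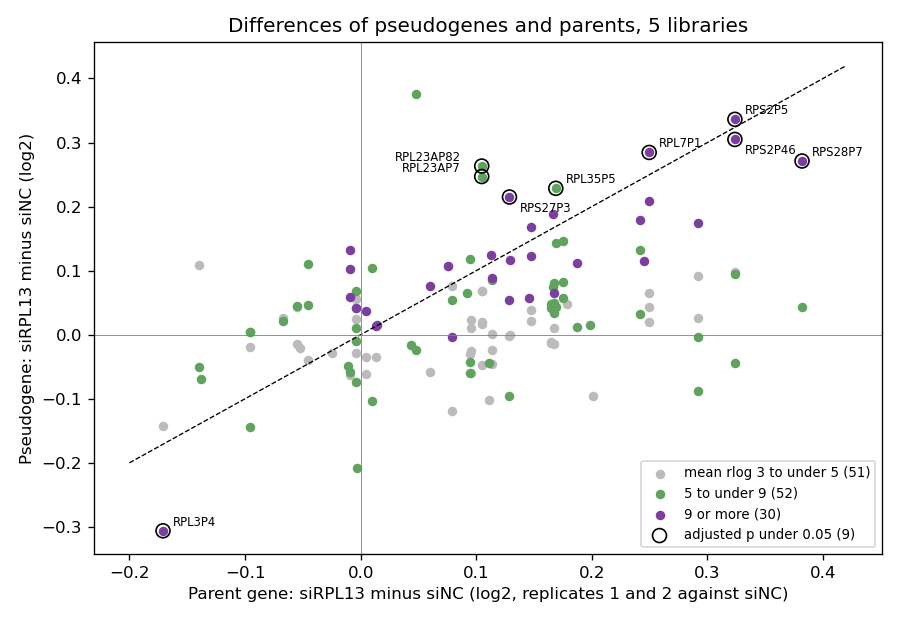
Difference siRPL13 minus siNC on the log2 scale in the 5-library comparison for each of 133 pseudogenes (vertical) and its parent (horizontal), coloured by the level of the pseudogene, with a dashed line where they are equal. The 9 ringed members passed an adjusted p of 0.05; most of the 30 at a mean rlog of 9 or more lie near the line, and the 51 under 5 lie near 0.

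The genes around the pseudogenes were read as well. Of the 300 members, 125 overlapped no other annotated gene and 145 lay in or over a protein-coding gene. Of these, 58 lay on its strand and 87 on the opposite strand alone. In 14 the annotated span of the member, introns included, overlapped an exon. In 49 pairs both the member and such a gene were tested, with a Spearman correlation of 0.11 between their differences in the 5-library comparison. The surrounding gene was called in 11 of these pairs (22.4%, near the 19.1% of all genes), and the member in 1 of the 11 (9.09%, beside 6.77% of all tested members), so neither count stands out from its background. That pair was RPS2P5 and TAOK3, which encodes a protein kinase and lies on the opposite strand, with 0.34 ± 0.05 in RPS2P5 and 0.20 ± 0.06 in TAOK3 (adjusted p = 0.0451 by limma). RPL36AP37, in an intron of PLEKHA7 on the same strand, had 0.01 where PLEKHA7 had -0.38 ± 0.09 (adjusted p = 0.0169 by limma). The annotated span of RPL23AP82, introns included, overlaps an exon of RABL2B on the opposite strand. RABL2B had -0.15 ± 0.07 (adjusted p = 0.146 by limma). The sources used here do not say whether strand was kept, so reads of overlapping genes on opposite strands cannot be told apart.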

How the data were processed

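Libraries of 3 siRPL13 and 3 siNC cultures were compared, grouped by the labels. The deposited values are rlog values on the log2 scale, 1 per Ensembl gene and library, as the deposited table's name says. Tools named in the submitters' processing notes, without their roles, are DESeq2, HTSeq 0.6.1p1, TopHat and Trimmomatic 0.33, with the build GRCh38.p7. Count models were not used on these values. The members and lists were chosen with earlier results of these data known.

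Symbols came from a table of current gene names, then from GENCODE 29; by GENCODE symbols alone 228 genes match. The 15327 genes whose mean rlog was 3 or more were tested two-sided with lmFit and a trended eBayes of limma (3.58.1, in R 4.3.3), adjusted by Benjamini-Hochberg over all of them, with a threshold of 0.05; the steps were tested on simulated data. Each pseudogene transcript was aligned locally to the parent's principal coding transcript (Biopython 1.88; match 2, mismatch -3, gap opening -5, extension -2). The genes named are the 10 highest members, those called without siRPL13 replicate 3, the 5 with the widest range, their parents and surrounding genes, and the 3 largest families; others were named after their values were seen, and 1 of the highest members is not reported here. Alternatives were other filters, scalings, variance priors, library weights, a replicate block and leaving out each library.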

Additional observations from a re-analysis of the deposited data

How the results depend on the processing

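The counts of called pseudogenes depended on the libraries used. With all 6 libraries, 0 higher and 0 lower (0% of all genes either way) became 13 and 5 with library weights, where 17% of all genes were higher and 17.7% lower (arrayWeights, whose fit stopped before full convergence and gave siRPL13 replicate 2 a weight of 7.19 and the library labelled siRPL13 replicate 3 a weight of 0.163), and leaving out single libraries gave 0 to 8 higher and 0 to 1 lower (0 to 8.42% and 0 to 10.7% of all genes). In the 5-library comparison, library weights gave 11 higher and 3 lower (13.1% and 14.9% of all genes), against 8 and 1 (8.42% and 10.7%), and leaving out a further library gave 0 to 9 higher and 0 to 1 lower (0.665 to 11.3% and 0.92 to 13.1% of all genes); where 1 siRPL13 library was left, it was assumed to vary like the siNC libraries. Other filters, scalings and variance priors left the 5-library counts within 7 to 9 higher and at 1 lower. Over these settings 5.06 to 9.64% of all genes were higher and 6.54 to 12.8% lower. The members tested were 82 at a mean rlog of at least 5, 300 with no filter and 133 otherwise. Of the 82, 8 were higher (9.76%, against 9.62% of all genes). In the other settings the higher share was under that of all genes.

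The median of the member's minus the parent's difference was -0.062 in the 5-library comparison, -0.033 at a mean rlog of at least 5, -0.077 with no filter and -0.094 with quantile scaling. With all 6 libraries it was -0.031, -0.060 with library weights, -0.070 with quantile scaling and -0.062 to 9.3e-05 over the libraries left out. Deviations of same-numbered libraries from their group means correlated at 0.084, -0.43 and -0.33. The siRPL13 mean includes the library labelled siRPL13 replicate 3, so these values cannot decide whether the replicate numbers pair the libraries. With the replicate block, 0 members were called, and 0% of all genes.

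Small differences of uncalled members changed sign. In the 5-library comparison RPL29P4 became 0.0053 with median centring and 0.039 with quantile scaling, RPL36AP37 became -0.010 and RPL7AP6 -0.0012 with library weights, and RPL7AP6 with all 6 libraries became -0.010. Leaving out a library in the 5-library comparison spanned -0.035 to 0.033 in RPL29P4, -0.013 to 0.049 in RPL36AP37, -0.17 to 0.45 in RPL41P1, -0.17 to 0.051 in RPL5P34 and -0.0030 to 0.11 in RPL7AP6. With all 6 it spanned -0.060 to 0.0080 in RPL29P4, -0.058 to 0.013 in RPL36AP37, -0.11 to 0.51 in RPL41P1, -0.018 to 0.093 in RPL7AP6, -0.016 to 0.38 in RPL9P9, -0.021 to 0.13 in RPS18P12 and -0.020 to 0.10 in RPS18P5. The cause of these changes was not tested. Depth is unknown, and 167 members with a mean rlog under 3 were not tested.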
